A study of Camellia reticulata with 27 samples.

Results

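Shizitou (SZT) is a red-flowered cultivar of Camellia reticulata, an ornamental tree of the tea family, and the question addressed here is how the transcripts of its petals differed between the bud and full bloom. A transcript was included when its mean level reached 5 FPKM (fragments per kilobase of transcript, scaled to the mapped total of the library, and so a level corrected for length) in the bud or the full-bloom libraries. This rule retained 38843 of the 225938 assembled transcripts, of which 18640 reached 5 FPKM at both stages, 11729 at the bud only and 8474 at full bloom only. The comparison used 6 of the 27 libraries of the series, 3 of SZT buds and 3 of SZT flowers at full bloom. The study sampled petals of garden-grown plants, while the labels give the tissue as flowers. Nothing says whether the 3 libraries of a stage came from separate plants or flowers, so p-values measure only the spread between libraries. For single transcripts that spread was estimated over all 27 libraries of the series, not over the 6 of SZT alone. The labels name no treatment. The white-flowered cultivar Tongzimian (TZM), at the same stages, and the red-and-white cultivar Manao (MN, called Damanao in the study), a bud variant of SZT, provided the stage changes with which SZT was compared, 3 libraries in each group.

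Red color in such petals comes from anthocyanins, pigments made by a branch of flavonoid synthesis. Chalcone synthase (CHS) carries out the first committed step, flavanone 3-hydroxylase (F3H) makes dihydroflavonols, dihydroflavonol 4-reductase (DFR) reduces them, and anthocyanidin synthase (ANS) forms the colored anthocyanidins, which anthocyanidin reductase (ANR) can divert to epicatechin. In well studied plants, complexes of MYB and bHLH transcription factors with a WD40 protein switch on the late steps of this pathway. The names used here are those that the study paired with transcripts in its table of co-expressed transcripts, 86 in all. The study selected them by their co-expression over these same libraries, so a common direction among them is not independent evidence. No other transcript is paired with a name in the sources used here, and the label of the tissue could not be checked against tissue markers.

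The 6 libraries were alike in their totals. FPKM summed to between 1160182 and 1251756, and between 134276 and 148030 transcripts lay above 0. Pearson's r of log2(FPKM + 1) over the transcripts tested ranged from 0.774 to 0.831 between bud libraries, from 0.823 to 0.875 between full-bloom libraries and from 0.317 to 0.431 between the stages. The number of transcripts above 0 averaged 140569 ± 6422 (SD, n = 3) at the bud and 143303 ± 5722 at full bloom, and the share of the 10 most abundant transcripts was 6.87% ± 1.23 and 5.67% ± 2.34. These means differed by less than the spread between libraries (two-sided exact permutation tests, p = 0.6 and 0.5, where 0.1 is the smallest p that 3 against 3 libraries allow). The sources used here give no read totals, so the depth behind a value is unknown.

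The petal transcriptome differed broadly between the stages. In the limma fit over all 27 libraries, 13816 of 38843 transcripts were called, which is 35.6%. A call required a difference of 1 or more in mean log2(FPKM + 1) and a p of at most 0.001 after Benjamini-Hochberg adjustment. Of these, 8253 transcripts, 21.2% of those tested, were lower at full bloom, and 5563, or 14.3%, were higher. The calls thus split into 59.7% lower and 40.3% higher, but this balance depended on the scale: after median-ratio scaling of the libraries, 41.5% of the calls were lower and 58.5% higher, and the median log2 difference of all transcripts tested moved from -0.38 to 0.16. Among the 18640 transcripts that reached 5 FPKM at both stages, 13.9% were called lower and 7.83% higher. In a fit on the 6 SZT libraries alone, 3328 of the 38843 transcripts were called. All directions below are on the deposited scale, beside a median of -0.38 and quartiles of -1.39 and 0.98 over all transcripts tested. In bulk petals, fewer cells of a type and less RNA per cell cannot be told apart.

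Transcripts that were called lower carried 32.5% of the FPKM of the bud and 5.91% of that of full bloom, whereas those called higher went from 4.47% to 36.5%. Both shares are descriptions of the called sets, which the same contrast chose. At the top of the range, 99 transcripts had a full-bloom mean of at least 1000 FPKM, and 68 of them were called higher and 1 lower. At the bud 55 transcripts reached 1000 FPKM, of which 29 were called lower at full bloom and 4 higher. Over all transcripts tested, 21.2% were called lower and 14.3% higher. Each of these sets was picked by its level at 1 of the compared stages, which by itself favors calls toward that stage. A further group was listed at 0 in all libraries of one stage: 819 transcripts called higher were listed at 0 in every bud library, with full-bloom means of up to 3315 FPKM, and 421 called lower were listed at 0 in every full-bloom library, with bud means of up to 320.02 FPKM. An exact 0 in such a table can also be a failed estimate, so no fold is given for them.

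**Figure D1:**
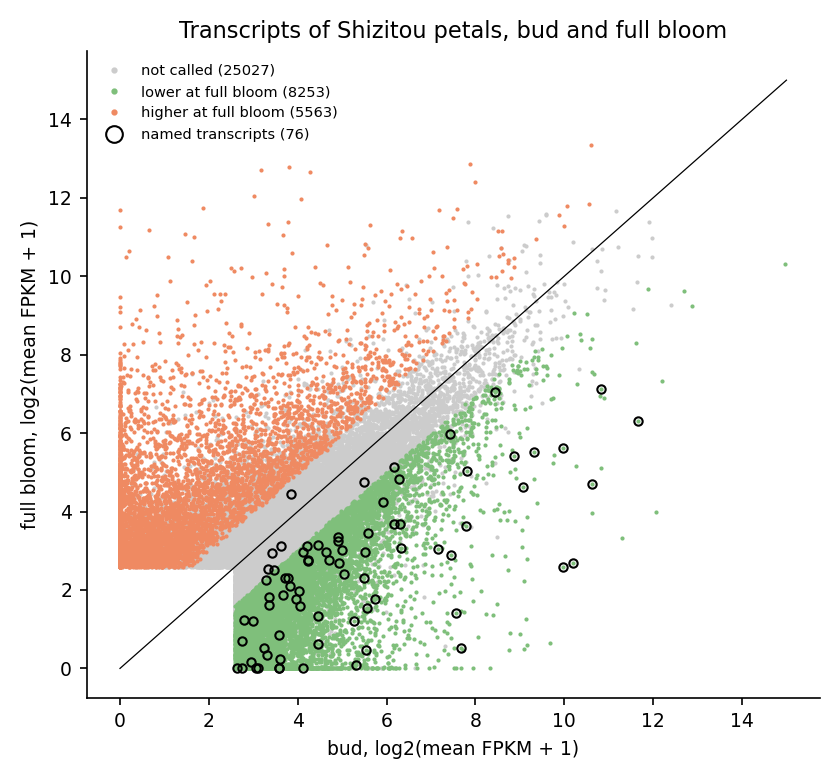
Mean level of each of the 38843 transcripts at full bloom (vertical axis) against the bud (horizontal axis), both as log2 of the mean FPKM plus 1. Green points were called lower at full bloom (8253), orange points called higher (5563), grey points not called, and open circles mark the 76 named transcripts that passed the filter, of which all but 1 lie below the line of equal levels.

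Of the transcripts without a name, those with the largest changes are given as examples. Cluster-37011.1 had 1.41, 0.26 and 0.03 FPKM in bud replicates 1, 2 and 3 and 2796, 2390 and 1782 FPKM in the full-bloom replicates, a log2 difference of 10.61 ± 0.35 (SE). Cluster-94207.5 went the other way, from 1290, 522 and 646 FPKM to 0.14, 0.61 and 0.98 FPKM, a log2 difference of -8.95 ± 0.49. Neither overlapped between the stages, and the limma adjusted p-values were 1.78e-14 and 8.74e-12. The largest gain in level was that of Cluster-81810.5, from 869, 2888 and 892 FPKM to 7445, 11947 and 11633 FPKM (log2 difference 2.95 ± 0.47, limma adjusted p = 1.68e-05). The largest loss was that of Cluster-70818.1, from 37521, 15305 and 43752 FPKM to 1375, 1352 and 1056 FPKM (log2 difference -4.55 ± 0.32, limma adjusted p = 3.12e-10). Its bud libraries differed from each other, replicate 2 being the lowest, but all lay far above those of full bloom. Cluster-81810.5 was not called when the 6 SZT libraries were fitted alone (limma adjusted p = 0.00527).

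Transcript names carry a number before the point, the cluster number, and members of one cluster number may share reads. Of 2223 cluster numbers with at least 2 called members, 1140 had members that were all lower at full bloom, 698 had members that were all higher, and 385 held members called in both directions.

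Transcripts of CHS, F3H, DFR and ANS were far more abundant in buds than at full bloom, while those of ANR were not. Of 20 named enzyme transcripts, 16 passed the filter, and 15 of these were called lower and none higher, beside 21.2% called lower over all transcripts. Some of the 16 reached 5 FPKM at the bud only, and so could be tested only by being higher there. The minor ANS transcript Cluster-21086.3 (log2 difference -2.19) lost its call after median-ratio scaling, with a pseudocount of 0.01 and with no filter. It also lost it without bud replicate 1 or any 1 of the full-bloom replicates. In a fit on the 6 SZT libraries alone, it was not called, nor were Cluster-72978.5 and Cluster-72978.8 of CHS. The same held there for Cluster-81276.1 and Cluster-81276.6 of F3H and for Cluster-90241.3 and Cluster-90241.5 of DFR. Because near-identical transcripts of an enzyme may share reads, their FPKM were also summed within each library. Summed CHS, the entry to the pathway, had 8275, 9482 and 3906 FPKM in bud replicates 1, 2 and 3 and 263, 198 and 219 FPKM in full-bloom replicates 1, 2 and 3. All 3 bud libraries lay above all 3 at full bloom. The bud mean of 7221 ± 2933 FPKM (SD, n = 3) was 31.9 times the full-bloom mean of 227 ± 33.2, with a log2 difference of -4.90 ± 0.29 (SE, limma adjusted p = 2.88e-11).

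F3H, the next named step, had summed levels of 2008, 2668 and 1212 FPKM in the bud libraries and 97.0, 78.5 and 72.1 FPKM in those of full bloom. Its groups did not overlap, and its log2 difference was -4.49 ± 0.26 (limma adjusted p = 1.59e-11). DFR, the first of the late steps, had 1019, 833 and 145 FPKM in the bud libraries and 45.9, 48.8 and 45.8 FPKM at full bloom. The full-bloom libraries were nearly equal, and bud replicate 3 lay closer to them than to the other bud libraries. The log2 difference of DFR was -3.38 ± 0.44 (limma adjusted p = 1.34e-06), and it missed the call when the 6 SZT libraries were fitted alone (limma adjusted p = 0.00876).

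ANS, the step that yields the anthocyanidins, showed the largest fall of the 4 sums. Its bud libraries had 1893, 2323 and 571 FPKM, and its full-bloom libraries 16.1, 27.1 and 33.8 FPKM. The bud mean was 62.1 times that of full bloom, and the log2 difference was -5.73 ± 0.45 (limma adjusted p = 1.39e-09). At full bloom, CHS was above F3H, DFR and ANS in level per length (227, 82.5, 46.8 and 25.7 FPKM). ANS stood below DFR at full bloom and above it at the bud (1596 against 666 FPKM).

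**Figure D2:**
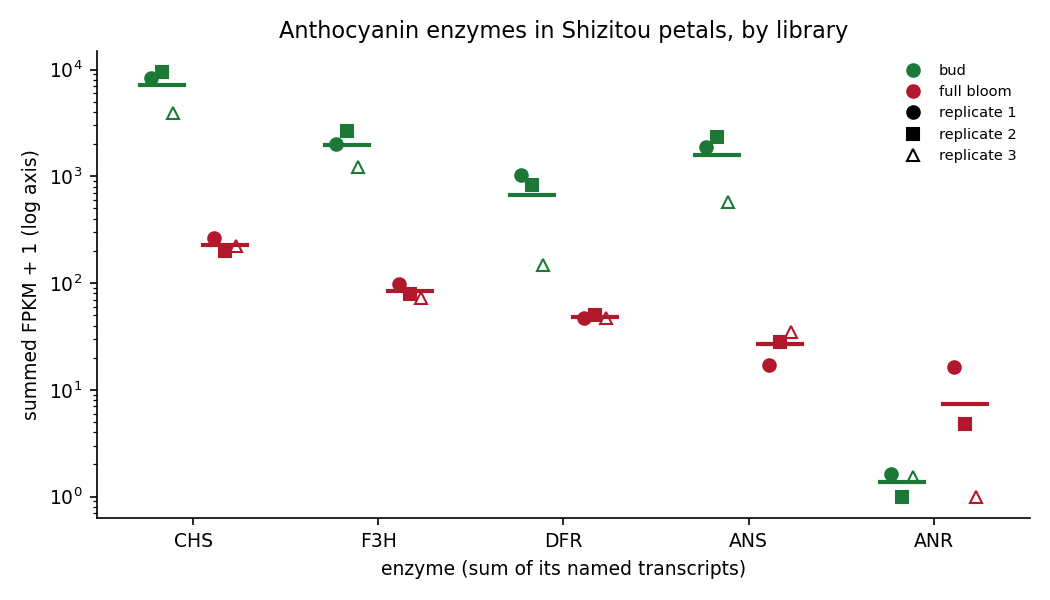
Summed FPKM plus 1 of the named transcripts of each enzyme in each SZT library, on a log axis, with buds in green, full bloom in red, a symbol for each replicate and a line at the group mean. For CHS, F3H, DFR and ANS all bud libraries lie above all full-bloom libraries, and bud replicate 3 (open triangles) is the lowest of the bud libraries, whereas the groups of ANR overlap.

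Transcripts of one enzyme did not all keep the same share of the total. Cluster-72978.11 was the most abundant CHS transcript at the bud, with 3788, 3443 and 2394 FPKM, and fell to 64.5, 82.4 and 89.6 FPKM (log2 difference -5.32 ± 0.24). Cluster-72978.8 had 1927, 2830 and 708 FPKM at the bud and kept 182, 108 and 123 FPKM at full bloom (log2 difference -3.54 ± 0.52). It made up 25.2% of the CHS sum at the bud and 60.6% at full bloom. Cluster-72978.4 and Cluster-72978.9 fell furthest, from bud means of 1002 and 1173 FPKM to 5.01 and 5.40 FPKM, with log2 differences of -7.23 ± 0.41 and -7.40 ± 0.39. The last was the largest fall of any named transcript in log2(FPKM + 1), though not by the ratio of means. Cluster-72978.4 and Cluster-72978.9 went from 13.9% and 16.3% of the CHS sum to 2.21% and 2.38%. The limma adjusted p-values of these 4 transcripts lay between 5.92e-13 and 5.43e-06.

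The F3H transcripts belonged to 2 cluster numbers. The 4 of cluster number 88339 had log2 differences between -4.51 and -3.95, and the most abundant of them, Cluster-88339.0, went from 1050, 1319 and 639 FPKM to 56.3, 49.7 and 39.5 FPKM (limma adjusted p = 2.86e-11). Cluster-81276.6 had a larger fall, from 188, 337 and 41.9 FPKM to 0.54, 2.87 and 1.51 FPKM (log2 difference -5.83 ± 0.49, limma adjusted p = 3.31e-09). It made up 9.62% of the F3H sum at the bud and 1.99% at full bloom. For DFR and ANS a single transcript carried nearly all of the sum at both stages, Cluster-90241.3 with 96.3% of DFR at either stage and Cluster-21086.8 with 98.8% of ANS at the bud and 97.6% at full bloom. The one tested enzyme transcript that was not called was Cluster-21086.7 of ANS, which had 14.2, 19.0 and 0 FPKM at the bud and 0.21, 0.31 and 0 FPKM at full bloom (limma adjusted p = 0.0124).

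ANR, the enzyme that leads away from anthocyanins, was low at both stages. Its 2 named transcripts summed to 0.62, 0 and 0.51 FPKM in the bud libraries and to 15.5, 3.78 and 0 FPKM at full bloom. The groups overlapped, since full-bloom replicate 3 was listed at 0, neither transcript reached a mean of 5 FPKM, and the difference was not called (log2 difference 1.67 ± 1.04, limma adjusted p = 0.165). The named transcripts made up a changing part of their cluster number 15097, with 0.41% of its FPKM at the bud and 31.9% at full bloom. All 16 members of that number together fell from 93.1, 102 and 81.2 FPKM to 28.7, 19.0 and 12.7 FPKM (log2 difference -2.20 ± 0.47, limma adjusted p = 0.000386 among sums by cluster number), and the sources used here do not say which enzyme the other members encode.

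Bud replicate 3 was lower than the other bud libraries for CHS, F3H, DFR and ANS, but not for ANR. Its summed level was 44.0% of the mean of bud replicates 1 and 2 for CHS, 51.8% for F3H, 15.7% for DFR and 27.1% for ANS. It was the lowest of the 3 bud libraries for 16 of 16 tested enzyme transcripts, beside 31.7% of the 30369 transcripts at 5 FPKM or more at the bud, and it was under 33.3% of the mean of the others for 11 of the 16, beside 6.59% of all. Without this library the log2 differences were -5.29 for CHS, -4.80 for F3H, -4.27 for DFR and -6.36 for ANS, and Cluster-21086.7 of ANS was called lower.

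**Figure D3:**
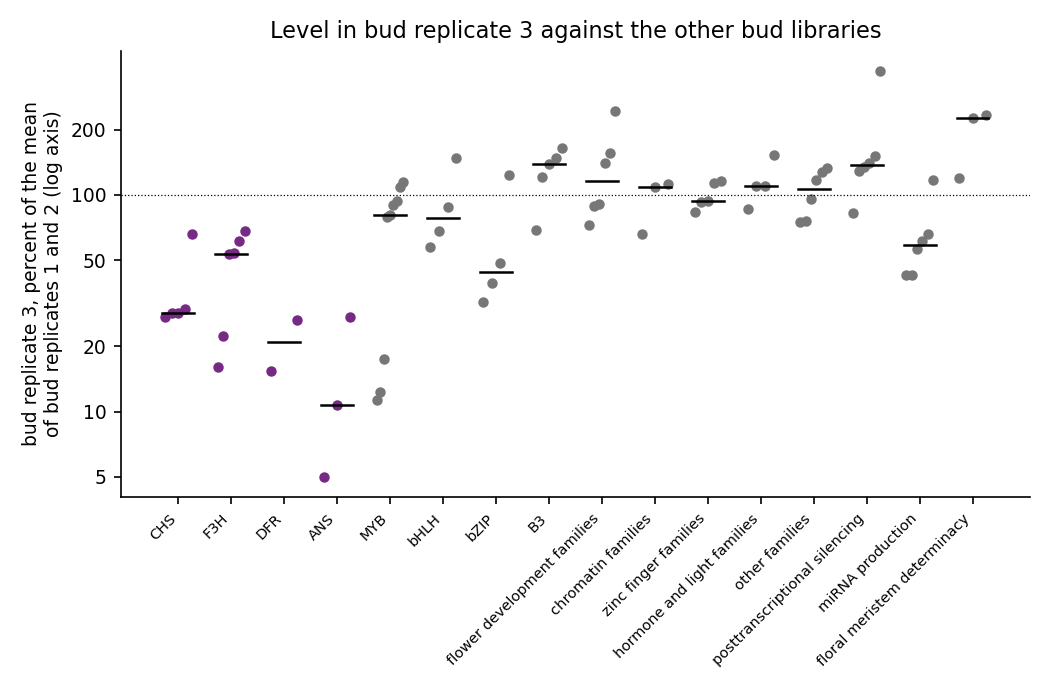
Level in bud replicate 3 as a percentage of the mean of bud replicates 1 and 2, on a log axis, for each tested transcript of each list, with a line at the list's median and enzymes in purple. All tested CHS, F3H, DFR and ANS transcripts and 3 of the 9 MYB transcripts lie well below 100%, while the medians of the lists from bHLH to floral meristem determinacy range from 44.0% for bZIP to 227% for floral meristem determinacy. The ANS transcript listed at 0 in this library is drawn at 5%.

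Among the regulators, 46 of 49 named transcription factor transcripts passed the filter, of which 40 were called lower and none higher, beside 21.2% and 14.3% over all transcripts tested. The same shares stand beside the count of each family and function, but they are not a matched background. The 8 called MYB and 4 called bHLH transcripts all had full-bloom means under 5 FPKM. They could thus enter the test only by being higher at the bud. MYB_8, at 5 FPKM or more at both stages, was not called. The median log2 difference of the 46 was -2.37 beside -0.38 over all transcripts tested. Over all 86 named transcripts, 76 passed the filter: 38 were at 5 FPKM or more at both stages and 38 at the bud only, and the latter could enter the test only by being higher at the bud. In total 63 were called lower, none were called higher, and 13 were not called, again beside 21.2% lower and 14.3% higher over all. In 70 of them every full-bloom library lay below every bud library, beside 38.8% of all transcripts tested, and in 1 every full-bloom library lay above, beside 24.6%. Of the 38 that reached 5 FPKM at both stages, 28 were called lower, beside 13.9% of all transcripts that did.

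MYB factors bind the promoters of pathway genes, and in other plants some activate and others repress anthocyanin synthesis. All 9 named MYB transcripts passed the filter, and 8 were called lower. Of these, MYB_6 kept its call in the fit on the SZT libraries alone. MYB_1, MYB_2, MYB_3, MYB_4, MYB_5, MYB_7 and MYB_9 lost theirs there (limma adjusted p between 0.0012 and 0.00759). MYB_6 (Cluster-63442.2) was the most abundant and had the largest fall in log2(FPKM + 1), from 178, 208 and 221 FPKM to 0.24, 0.29 and 0.80 FPKM (log2 difference -7.15 ± 0.37, limma adjusted p = 3.52e-12). MYB_9 (Cluster-97515.3) had 48.7, 60.8 and 6.16 FPKM at the bud and 0, 0.11 and 0.08 FPKM at full bloom (log2 difference -4.72 ± 0.48, limma adjusted p = 4.27e-08). By the ratio of bud to full-bloom means, MYB_9 fell further than MYB_6 (609 against 456). MYB_7 (Cluster-74813.0), with 24.1, 21.98 and 2.82 FPKM at the bud, and MYB_2 (Cluster-97515.2), with 14.0, 16.2 and 2.65 FPKM, were listed at 0 in every full-bloom library, as were MYB_4 and MYB_5 (limma adjusted p between 1.85e-07 and 1.18e-05).

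The MYB transcripts fell into different patterns within the bud. MYB_9, MYB_7 and MYB_2 were at 11.3%, 12.3% and 17.5% of the mean of the other bud libraries in bud replicate 3, which is in the range of the lowest enzyme transcripts. MYB_6, in contrast, was at 115% there, so the most abundant MYB transcript was not low in the library in which the enzymes were low. MYB_4, MYB_5, MYB_1 and MYB_3 lay between 79.4% and 109%. MYB_3 (Cluster-103605.1) had the smallest called fall, from 11.2, 14.4 and 14.0 FPKM to 3.02, 3.06 and 3.81 FPKM (log2 difference -1.72 ± 0.14, limma adjusted p = 1.94e-09). MYB_8 (Cluster-96185.4) was not called, with 12.8, 10.8 and 10.6 FPKM at the bud and 3.70, 9.26 and 10.02 FPKM at full bloom.

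The bHLH factors are the usual partners of MYB factors in these complexes. All 4 named bHLH transcripts were called lower. bHLH_3 (Cluster-79885.6) had 42.5, 52.1 and 41.6 FPKM at the bud and 0.11, 0.79 and 0.28 FPKM at full bloom (log2 difference -5.08 ± 0.23, limma adjusted p = 6.24e-13), and the spread within each stage was small beside this gap. bHLH_2 (Cluster-79885.2) of the same cluster number went from 59.4, 47.9 and 30.8 FPKM to 1.25, 1.15 and 3.39 FPKM (log2 difference -4.04 ± 0.39), a call that was lost with a pseudocount of 0.01 (limma adjusted p = 0.00283). bHLH_4 (Cluster-97329.0) fell by 3.84 ± 0.25 and bHLH_1 (Cluster-18705.3) by 1.38 ± 0.19 on the log2 scale, with limma adjusted p-values of 8.32e-11 and 2.96e-06.

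The bZIP factors, of which some in Arabidopsis act in light responses and others are translationally repressed by sucrose, were mixed. Cluster-84038.13 fell from 15.5, 11.7 and 16.8 FPKM to 4.44, 0.53 and 2.18 FPKM (log2 difference -2.38 ± 0.40, limma adjusted p = 2.90e-05), and this call was lost with a pseudocount of 0.01 and in the fit on the SZT libraries alone (limma adjusted p = 0.0411 and 0.00697). Its cluster number as a whole took the opposite direction, from 40.1 to 62.4 FPKM, but its log2 difference of 0.63 ± 0.14 was under the threshold of 1 (limma adjusted p = 0.000406). Cluster-89052.1 fell by 1.75 ± 0.34 on the log2 scale. Its call was lost after median-ratio scaling, with a pseudocount of 0.01 (limma adjusted p = 0.126) and in the fit on the SZT libraries alone (limma adjusted p = 0.00949). It was also lost without bud replicates 1 or 2 or full-bloom replicate 1. The most abundant bZIP transcript, Cluster-73402.0, which the study also assigns to sucrose-induced translational repression, had 200, 229 and 84.5 FPKM at the bud and 27.2, 76.6 and 82.9 FPKM at full bloom. It missed the threshold narrowly (log2 difference -1.48 ± 0.35, limma adjusted p = 0.001005), and it was called lower without bud replicate 3 (log2 difference -1.92), full-bloom replicate 2 (-1.70) or full-bloom replicate 3 (-1.76). Cluster-73402.1 of the same function was not called either (log2 difference -0.98 ± 0.39, limma adjusted p = 0.0361). In bud replicate 3 they were at 39.4% and 32.1% of the mean of the other bud libraries.

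Of the families tied to flower development, 5 of 6 transcripts were called lower, with a median log2 difference of -2.33. The MADS-MIKC factors, which specify floral organs, included MADS-MIKC_2 (Cluster-93016.5), with 433, 384 and 574 FPKM at the bud and 32.3, 56.3 and 37.6 FPKM at full bloom (log2 difference -3.45 ± 0.22, limma adjusted p = 7.93e-11). MADS-MIKC_1 (Cluster-75270.2) remained abundant, going from 367, 346 and 318 FPKM to 115, 151 and 126 FPKM (log2 difference -1.39 ± 0.25). This call was lost after median-ratio scaling (log2 difference -0.99) and in the fit on the SZT libraries alone (limma adjusted p = 0.00141). SBP factors act in developmental phase change, and SBP_1 (Cluster-69579.0) fell from 191, 261 and 206 FPKM to 5.26, 14.2 and 14.7 FPKM (log2 difference -4.26 ± 0.28, limma adjusted p = 8.33e-11). SBP_2 (Cluster-89089.0) fell by 2.02 ± 0.29 on the log2 scale. The growth-regulating factor GRF (Cluster-36771.0), a family that promotes cell proliferation, had 4.35, 3.34 and 9.37 FPKM at the bud and was listed at 0 in all full-bloom libraries. SBP_2 and GRF also lost their calls in the fit on the SZT libraries alone (limma adjusted p = 0.00408 and 0.0056). TCP (Cluster-77973.0), of a family that controls organ growth, was not called, with 30.7, 44.0 and 58.3 FPKM at the bud and 16.3, 33.95 and 27.04 FPKM at full bloom.

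All 5 zinc finger transcripts were called lower. C2C2 (Cluster-74798.6) had 121, 149 and 157 FPKM at the bud and 3.01, 5.59 and 13.3 FPKM at full bloom (log2 difference -4.30 ± 0.56, limma adjusted p = 1.38e-06). Its cluster number as a whole took the opposite direction in mean, from 359 to 932 FPKM, but this sum was not called (log2 difference 1.25 ± 0.65, limma adjusted p = 0.0977). C2H2_2 (Cluster-99976.1) went from 87.5, 64.4 and 86.1 FPKM to 4.86, 7.77 and 9.61 FPKM (log2 difference -3.28 ± 0.27). The remaining C2H2 and C3H transcripts fell by 1.54 to 1.95 on the log2 scale. Of these, C2H2_1 and C3H_1 lost their calls in the fit on the SZT libraries alone (limma adjusted p = 0.00804 and 0.00447). C2H2_1 also lost its call with a pseudocount of 0.01 (limma adjusted p = 0.00437).

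B3 factors, a plant family with members in auxin response and seed maturation, had 4 of 5 transcripts called lower. The most abundant, B3_4 (Cluster-86814.2), went from 53.5, 49.2 and 76.0 FPKM to 15.9, 18.8 and 19.0 FPKM (log2 difference -1.66 ± 0.18, limma adjusted p = 1.23e-07), and B3_5 (Cluster-92785.4) had the largest difference, -2.99 ± 0.34. B3_3 (Cluster-108139.4) was close to the threshold, at -1.07 ± 0.24, and lost its call after median-ratio scaling (-0.72), with a pseudocount of 0.01, with no filter, in the fit on the SZT libraries alone, and without bud replicates 1 or 3 or full-bloom replicates 1 or 3 (-1.12 to -0.81 in the last 4). B3_4 and B3_1 also lost their calls in the fit on the SZT libraries alone (limma adjusted p = 0.00147 and 0.00376). B3_5 lost its call with a pseudocount of 0.01 (limma adjusted p = 0.00137). B3_2 had a difference of -0.47 ± 0.33 and was not called. In bud replicate 3, 4 of the 5 B3 transcripts were at their highest, the reverse of the enzymes.

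Among hormone and light families, Tify, which includes repressors of jasmonate signalling, fell from 27.5, 29.6 and 31.2 FPKM to 2.39, 6.12 and 7.73 FPKM (log2 difference -2.35 ± 0.29, limma adjusted p = 7.88e-07). GRAS, which includes the DELLA repressors of gibberellin signalling, fell by 2.00 ± 0.24 on the log2 scale. FAR1, a family first described in far-red light signalling of Arabidopsis, fell by 1.09 ± 0.23. Its call was lost after scaling, with no filter and in the fit on the SZT libraries alone. It was also lost without any 1 of bud replicates 1 and 2 and full-bloom replicates 1, 2 and 3. Tify and GRAS lost their calls in the fit on the SZT libraries alone as well (limma adjusted p = 0.00285 and 0.00508). GARP (Cluster-86331.2) was the only named transcript whose full-bloom libraries all lay above its bud libraries, with 14.1, 11.9 and 14.2 FPKM against 22.7, 22.6 and 17.1 FPKM. Its log2 difference of 0.59 ± 0.14 was not called (limma adjusted p = 0.00108).

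The transcripts of chromatin families showed smaller differences. SET, of the histone methyltransferase domain family, Alfin, a reader of histone marks, and SNF2, a chromatin remodeler, were called lower with log2 differences of -1.56 ± 0.22, -1.45 ± 0.15 and -1.67 ± 0.37. The call of SNF2 was lost after median-ratio scaling, with no filter and in the fit on the SZT libraries alone. It was also lost without bud replicate 2 or full-bloom replicates 2 or 3. SET and Alfin, too, lost their calls in the fit on the SZT libraries alone (limma adjusted p = 0.00388 and 0.00165). The cluster number of Alfin as a whole fell by 0.94 ± 0.13 on the log2 scale, under the threshold of 1. Of the other families, all 6 tested transcripts were called lower within a narrow range, from -3.20 to -2.45. Trihelix (Cluster-82017.0) went from 48.9, 34.9 and 48.9 FPKM to 3.05, 4.31 and 4.35 FPKM, and HB-HD-ZIP (Cluster-87964.0), of a homeodomain family, from 202, 285 and 184 FPKM to 37.1, 28.8 and 28.6 FPKM. Whirly, a single-stranded DNA-binding factor of plastids and nucleus, and mTERF, an organelle transcription factor, fell by 2.62 ± 0.16 and 2.74 ± 0.18 on the log2 scale. The limma adjusted p-values of these 4 transcripts were between 3.43e-11 and 3.66e-09.

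**Figure D4:**
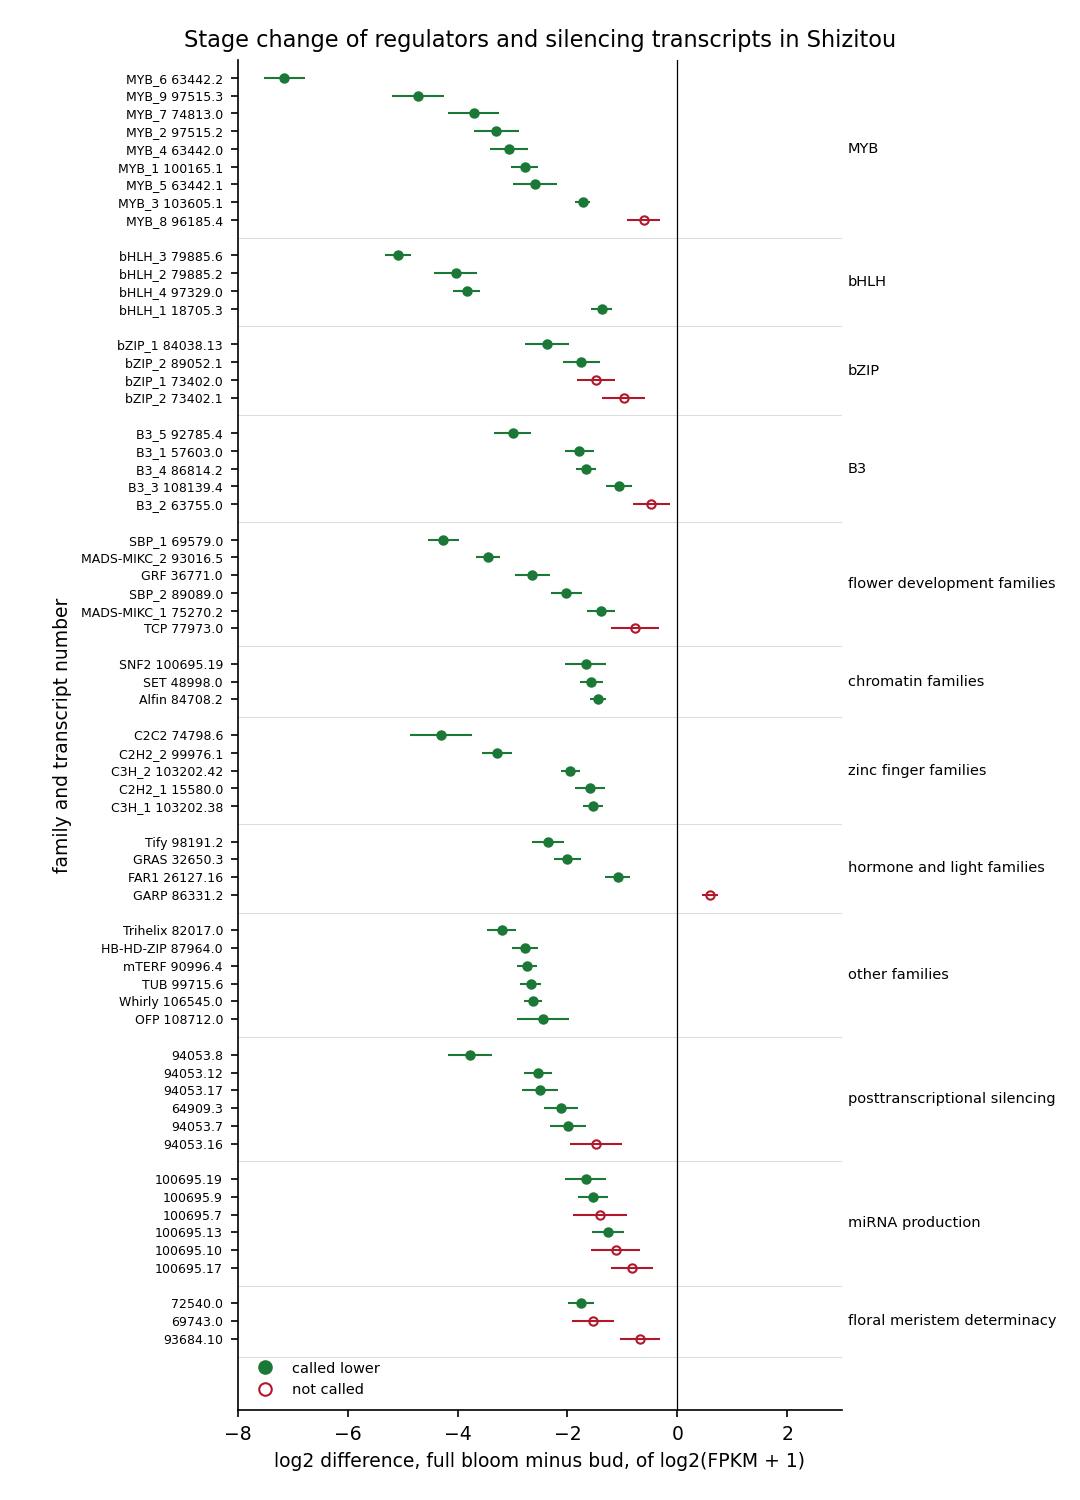
Log2 difference of full bloom minus bud, in log2(FPKM + 1), for each tested transcript of the transcription factor and silencing lists, with bars of 1 standard error from limma. Filled green points were called lower and open red points were not called. All points but GARP lie left of 0, and MYB_6 lies furthest to the left.

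Silencing and meristem functions were also named by the study. Of 6 transcripts for positive regulation of posttranscriptional gene silencing, 5 were called lower, with a median log2 difference of -2.31. The largest difference was that of Cluster-94053.8, with 22.9, 16.5 and 73.4 FPKM at the bud and 1.27, 1.52 and 1.14 FPKM at full bloom (log2 difference -3.77 ± 0.40, limma adjusted p = 7.55e-08), and bud replicate 3 was its highest library. Cluster-94053.8 and Cluster-94053.7 lost their calls in the fit on the SZT libraries alone (limma adjusted p = 0.00213 and 0.00112). Of 6 transcripts for the production of miRNAs, all of cluster number 100695 and 1 of them also the SNF2 transcript above, 3 were called lower, with a median log2 difference of -1.34, and none of these 3 was called after median-ratio scaling. Nor was any of the 3 called in the fit on the SZT libraries alone (limma adjusted p between 0.00757 and 0.0147). The 6 made up 31.5% of the FPKM of their cluster number at the bud and 16.7% at full bloom. All 22 members of that number together went from a mean of 375 to 246 FPKM, and their log2 difference of -0.61 ± 0.12 was under the threshold of 1. For floral meristem determinacy, 3 of 6 transcripts passed the filter and 1 was called lower, Cluster-72540.0, from 8.83, 8.49 and 10.4 FPKM to 1.86, 1.47 and 2.89 FPKM (limma adjusted p = 2.26e-06). That call was lost with a pseudocount of 0.01 and in the fit on the SZT libraries alone (limma adjusted p = 0.0456 and 0.00255).

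The stage change of SZT was next set beside those of TZM and MN over the same 38843 transcripts. These had been filtered on SZT levels alone, so transcripts present mainly in TZM or MN were left out. The numbers of calls are therefore not an even comparison of how much each cultivar changed. TZM had 7027 calls (18.1%) between its bud and full bloom, and MN had 12598 (32.4%) between its late bud, bud stage 3, and the red region of its petals at full bloom. Of the SZT calls, 9211 were also called in the same direction in MN, which is 66.7% of the SZT calls and 73.1% of the MN calls, and 31 in the opposite direction. With TZM, 3991 were shared in direction, 28.9% of the SZT calls and 56.8% of the TZM calls, and 329 were opposite. Pearson's r of the log2 differences was 0.789 with MN and 0.433 with TZM, across 38843 transcripts that are not independent and whose cluster members may share reads.

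The difference between stage changes was tested directly as an interaction. It was called for 5963 transcripts (15.4%) against TZM and for 659 (1.70%) against MN. The second count was sensitive to single libraries, with 407 without full-bloom replicate 3 of SZT, 438 and 432 without replicates 1 and 2 of MN at bud stage 3, and 420 without replicate 2 of the red region of MN. Against TZM, 2973 transcripts had the more positive change in SZT and 2990 the more negative one. When only the libraries compared were fitted, 2313 differences were called against TZM and 30 against MN. With the filter over all 9 groups, the counts were 7185 and 738 of 55099 transcripts.

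For CHS, F3H and ANS, the fall was smaller in SZT than in TZM. Summed CHS went from 6259 ± 856 FPKM (SD, n = 3) at the bud to 41.6 ± 12.9 FPKM at full bloom in TZM, against 227 FPKM at full bloom in SZT, and the stage changes differed by 2.34 ± 0.42 (SE) on the log2 scale (limma adjusted p = 0.000167). For ANS the TZM levels were 1985 ± 223 and 2.90 ± 0.63 FPKM, and the difference between changes was 3.27 ± 0.64 (limma adjusted p = 0.000414). For F3H they were 2664 ± 571 and 34.4 ± 5.42 FPKM, with a difference of 1.73 ± 0.37 (limma adjusted p = 0.000808). The difference for DFR, 2.25 ± 0.62, was not called (limma adjusted p = 0.00670), nor was that for ANR, -3.38 ± 1.46 (limma adjusted p = 0.0703), whose TZM level went from 0 in every bud library to 44.6 ± 32.4 FPKM.

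These differences were less firm than the falls themselves. None of the 3 called sums was called when only the 12 libraries concerned were fitted, with limma adjusted p-values of 0.00512, 0.00375 and 0.00827 for CHS, ANS and F3H. The difference for F3H also lost its call without any 1 of 10 of the 12 libraries, with values between 1.42 and 1.82, among them bud replicate 3 of SZT (1.42). That for ANS lost it without full-bloom replicates 2 or 3 of SZT, bud replicates 1 or 3 of TZM or full-bloom replicates 2 or 3 of TZM (3.05 to 3.33). Against MN, no sum was called, with differences of 0.90 ± 0.42 for CHS, 1.26 ± 0.37 for F3H, 0.90 ± 0.62 for DFR and 0.99 ± 0.64 for ANS (limma adjusted p = 0.163, 0.0257, 0.375 and 0.341), which does not show that the changes were equal. With the white region of MN in place of the red one, the difference for CHS was 3.50 and was called (limma adjusted p = 2.02e-05).

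Single named transcripts differed in both directions. Against TZM, the changes of the main transcripts of ANS (Cluster-21086.8), CHS (Cluster-72978.11) and F3H (Cluster-88339.0) differed by 3.24, 2.13 and 1.95 on the log2 scale, with a smaller fall in SZT, and none of these 3 was called when only the 12 libraries concerned were fitted. MYB_3 had a smaller fall in SZT than in either cultivar, by 1.03 ± 0.20 against TZM and by 1.504 ± 0.20 against MN (limma adjusted p = 0.000336 and 5.71e-05), and neither was called when only the libraries compared were fitted (limma adjusted p = 0.00958 and 0.0102). At full bloom MYB_3 had 1.65 ± 0.20 FPKM in TZM, below all 3 libraries of SZT. Its difference against TZM was not called without bud replicate 1 or full-bloom replicate 3 of SZT or without bud replicate 1 or full-bloom replicates 2 or 3 of TZM (0.923 to 1.001). bHLH_3 had the opposite difference, -2.81 ± 0.33 against TZM (limma adjusted p = 1.62e-06). Its level in TZM buds was only 4.49 ± 1.46 FPKM, and with a pseudocount of 0.01 the difference was -1.20 and not called (limma adjusted p = 0.496).

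**Figure D5:**
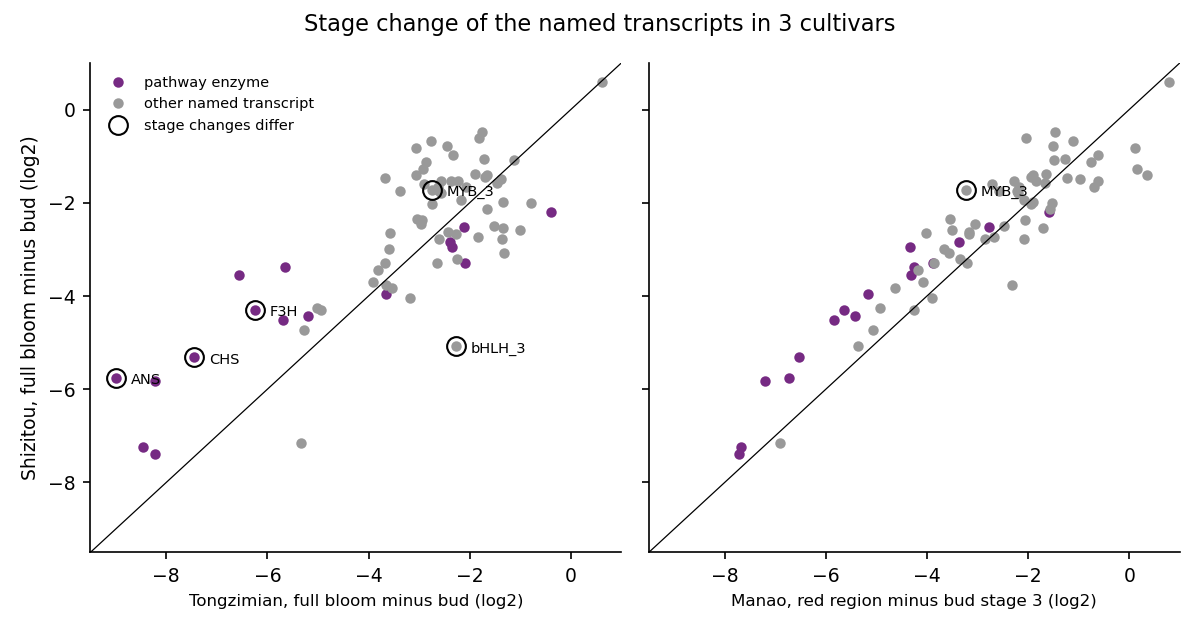
Log2 difference between stages in SZT (vertical axis) against that in TZM (left) and MN (right) for the 76 named transcripts that passed the filter, with pathway enzymes in purple and the line of equal change in black. Circled transcripts differ between the cultivars by the interaction test: ANS, CHS, F3H and MYB_3 lie above the line against TZM and bHLH_3 below it, and MYB_3 lies above it against MN.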

How the data were processed

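RNA was sequenced from 27 petal libraries, 3 in each of 9 groups. The authors trimmed reads with Trimmomatic 0.36 (submitters' processing notes), assembled transcripts with Trinity and mapped reads to them. The mapper and quantifier are not given in the sources. The deposited FPKM values are the authors' own, rounded to 2 decimals, without an expression filter. All columns were matched to libraries by title. Low values formed no whole steps, so read counts could not be recovered and low FPKM are the least precise.

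Transcripts with a mean of at least 5 FPKM in SZT buds or full bloom were tested with limma 3.58.1 (R 4.3.3) on log2(FPKM + 1), over all 27 libraries with each group given its own mean (18 residual degrees of freedom) and a trend of the variance on mean level. Differences on this scale understate the change of low transcripts. The FPKM sums of the 5 enzymes entered the same fit. Calls needed an absolute log2 difference of 1 or more and a p of at most 0.001 after Benjamini-Hochberg adjustment. Differences between cultivars were contrasts of stage changes. DEGseq, which the study used, needs counts and was not run. The limma fit and the rule for calls were first tested on simulated data, for the stage change of SZT and its difference from TZM. The other steps had no such test. Folds are ratios of mean FPKM. Library measures were compared by exact permutation.

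Named transcripts are those that the study's table of co-expressed transcripts names. Unnamed ones were picked among called transcripts by the largest log2 rise and fall (above 0 in all 6 libraries) and by gain and loss in mean FPKM. Members and lists were chosen with earlier results of these data known. Alternatives tried were median-ratio scaling, a pseudocount of 0.01, a filter of 10, none or over all 9 groups, no threshold on the difference, an adjusted p under 0.05, a block for the replicate number, a fit of only the libraries compared, sums by cluster number, the most abundant transcript of an enzyme, other MN groups and each library left out. Data handling and plots used pandas 2.3.3 and matplotlib 3.10.9 in Python 3.11.15. Other pathway enzymes, annotation, sequences and metabolites were not analysed here.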

Additional observations from a re-analysis of the deposited data

Results flagged for a closer look

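For the results below, the difference between the stage change of SZT and that of another cultivar passed the limma interaction test. Against TZM, the difference on the log2 scale was 3.27 for summed ANS, 2.34 for summed CHS and 1.73 for summed F3H. It was 3.24 for the ANS transcript Cluster-21086.8, 2.13 for the CHS transcript Cluster-72978.11, 1.95 for the F3H transcript Cluster-88339.0, 1.03 for MYB_3 and -2.81 for bHLH_3. The sums and their main transcripts are not independent of each other. Against MN, it was 1.504 for MYB_3.

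Among the transcripts without a name, the difference against TZM was 3.98 for Cluster-81810.5, which rose in SZT and had a log2 difference of -1.03 in TZM that was not called, and -3.09 for Cluster-70818.1, which fell by 1.46 in TZM.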

How the results depend on the processing

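The sign under each alternative was compared for the named transcripts, the examples without a name, the enzyme sums and the named differences between cultivars. None of these that was called changed sign when refitted, and no named transcript was called higher. The other transcripts were only counted. The exceptions in direction are sums by cluster number, positive but not called for the numbers of the C2C2 transcript (1.25) and of bZIP Cluster-84038.13 (0.63), and the split of calls, 59.7% lower as deposited and 41.5% after median-ratio scaling. The 4 enzyme sums of CHS, F3H, DFR and ANS were called under each alternative except DFR in the fit on the 6 SZT libraries alone (-3.38, limma adjusted p = 0.00876). In that fit 3328 transcripts were called, 1485 higher and 1843 lower, with 27 of the named ones, although 21316 of 38843 transcripts had an adjusted p under 0.05; it has 4 residual degrees of freedom. The stage changes then differed for 2313 transcripts against TZM and 30 against MN. Summing by cluster number gave 7886 calls, 2903 higher and 4983 lower, over 21572 features, and 39 of 52 cluster numbers with named transcripts were lower. A filter of 10 left 5500 lower calls, no filter gave 8767 higher calls, and median-ratio scaling gave 5196 lower calls, with 51 of 73 named transcripts lower. At an adjusted p under 0.05, 13809 transcripts differed from TZM and 4343 from MN. Against MN, 423 differed with a pseudocount of 0.01 and 357 with bud stage 1 of MN. The share of the 100 most abundant transcripts was 2.60 percentage points higher at full bloom (exact permutation p = 0.4), against -1.20 for the 10 most abundant. With the white region of MN, the CHS difference was called (3.50). Leaving out single libraries gave 11792 to 13191 calls, 4731 to 5166 higher and 7061 to 8201 lower, 58 to 63 named ones, 4584 to 6231 differences against TZM and 407 to 706 against MN, and log2 differences from -5.29 to -4.65 for CHS, -4.80 to -4.24 for F3H, -4.27 to -2.87 for DFR, -6.36 to -5.35 for ANS and 0.70 to 2.72 for ANR. Of the values of single transcripts and of sums between cultivars, 1383 stayed on their side of the threshold, 127 lost and 15 gained the call; beyond the fits named, the cause was not tested.

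Replicate numbers did not pair the libraries: deviations of same-numbered bud and full-bloom libraries correlated at 0.014, 0.018 and -0.059. With the replicate number as a block, 13497 transcripts were called, 62 of the named ones, and 5529 and 557 differed from TZM and MN. Unknown depth limits the precision of low values.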
